A study of Mus musculus with 4 samples.

Results

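The ribosomal protein pseudogenes of the mouse were examined in RNA-seq of mouse embryonic fibroblasts. They were taken as every listed gene whose symbol begins with Rpl or Rps and carries the suffix -ps, and their values were set beside those of the parent gene named in the symbol. Of 300 symbols of that form in the GENCODE M21 annotation, 180 were listed, out of 27597 genes in the deposited tables. They comprised 112 pseudogenes of large-subunit genes and 68 of small-subunit genes, with 57 parents in all. The cells came from skin of embryos of the strain OGXICR at age D13.5, with the epidermis removed. All 4 groups were infected with a dox-inducible lentiviral system. One group received empty vector and is called MEF in the tables. The other groups received the factors Sox2, Klf4 and cMyc (SKM), these with Oct4 (OSKM), or these with GATA3, the published meaning of the label G3 (G3SKM). The infected cells are a bulk population. Each group has 1 value, which stands for 2 replicates, so there is no spread between replicates and no test was possible. In bulk RNA, fewer cells of a type and less RNA per cell cannot be told apart.

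Ribosomal proteins are the protein part of the ribosome, and the mRNAs of their genes are among the most abundant of any growing cell. Because these mRNAs are short and plentiful, they have often been reverse transcribed and inserted back into the genome by the machinery of LINE-1 elements. The resulting processed pseudogenes have no introns, usually lack the parent's promoter, and collect mutations with age. A young copy still reads almost exactly like the mRNA of its parent.

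The annotation classed 170 of the 180 as processed pseudogenes, 5 as transcribed processed pseudogenes and 5 as protein coding (Rps12-ps3, Rpl9-ps6, Rpl10-ps3, Rpl36a-ps1 and Rpl9-ps1). A single exon made up 177 of them. Their length ran from 151 to 1214 bases with a median of 467.5. Introns of other genes held 63 of them, 46 only on the opposite strand and 16 only on the same strand.

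The copies of Rpl31, a large-subunit protein at the exit of the peptide tunnel, show how the members differ from a parent and from each other. The lines give the first 120 bases of the coding sequence of Rpl31 and the part of each copy that aligned to them, from the transcripts of GENCODE M21 (GRCm38). Capitals mark bases that differ from the parent. The 7 copies were chosen after their values were seen, to span the range of levels.
Rpl31: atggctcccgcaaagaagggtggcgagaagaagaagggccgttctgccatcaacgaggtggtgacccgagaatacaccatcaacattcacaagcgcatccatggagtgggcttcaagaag
Rpl31-ps8: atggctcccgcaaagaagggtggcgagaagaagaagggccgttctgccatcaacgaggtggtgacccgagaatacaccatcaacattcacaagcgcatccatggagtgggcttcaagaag
Rpl31-ps13: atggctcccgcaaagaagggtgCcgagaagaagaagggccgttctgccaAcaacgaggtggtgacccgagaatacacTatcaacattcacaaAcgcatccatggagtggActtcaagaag
Rpl31-ps10: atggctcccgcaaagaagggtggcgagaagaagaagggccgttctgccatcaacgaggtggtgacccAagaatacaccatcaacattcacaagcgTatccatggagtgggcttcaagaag
Rpl31-ps17: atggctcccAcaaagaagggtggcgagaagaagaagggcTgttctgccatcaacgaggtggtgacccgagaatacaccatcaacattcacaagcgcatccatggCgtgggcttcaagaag
Rpl31-ps1: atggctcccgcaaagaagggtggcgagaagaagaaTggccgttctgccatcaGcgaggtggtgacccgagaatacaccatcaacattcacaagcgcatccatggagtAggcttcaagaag
Rpl31-ps20: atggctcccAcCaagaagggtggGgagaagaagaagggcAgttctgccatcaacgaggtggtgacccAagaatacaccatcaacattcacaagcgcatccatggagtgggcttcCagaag
Rpl31-ps6: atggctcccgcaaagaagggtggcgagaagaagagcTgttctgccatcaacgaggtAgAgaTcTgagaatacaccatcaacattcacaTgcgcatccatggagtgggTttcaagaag

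Rpl31-ps8 (chr15:90764279-90764656, minus strand) held the whole coding sequence of Rpl31 without a difference, and its mean RPKM, a read number scaled to gene length and depth, over the 4 groups was 1608. Rpl31-ps13 had 5 differences in these 120 bases and a mean of 438 RPKM. Rpl31-ps10 had 2 and a mean of 163 RPKM. The count of differences in this stretch did not order the levels. The share of 50-base windows of the whole copy found without a difference in a transcript of Rpl31 did so for these 7 copies, but not for all 11 listed. Rpl31-ps11, with 46.6% of its windows in Rpl31, had a mean of 781 RPKM, and Rpl31-ps4, with 16.4%, had 345 RPKM. Among the 7 the share was 100% in Rpl31-ps8, 48.6% in Rpl31-ps13, 30.7% in Rpl31-ps10 and 23.4% in Rpl31-ps17, whose mean was 87.5 RPKM. In Rpl31-ps1 it was 10.3% at a mean of 17.1 RPKM, in Rpl31-ps20 it was 6.99% at 5.39 RPKM, and in Rpl31-ps6 it was 0% at 0.523 RPKM.

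On the deposited scale the highest members carried values of the order of the most abundant mRNAs. In the empty vector group, 95 of the 180 were among the 500 genes with the highest RPKM. The mean over the 4 groups was 100 RPKM or more in 106 members, between 1 and 100 in 35, and under 1 in 39. Values of 1000 RPKM or more were found in 22 members with empty vector, 32 with SKM, 32 with OSKM and 36 with G3SKM. The members together held 17.0% of all summed RPKM with empty vector, 18.5% with SKM, 18.4% with OSKM and 19.6% with G3SKM. That scale appears to divide reads by whole gene spans, introns included. It thus lowers spliced genes but not single-exon copies, and raises these ranks and shares. As reads, the members held about 3.85 M of 111.1 M with empty vector and 2.45 M of 54.0 M with SKM. They held about 3.20 M of 74.7 M with OSKM and 5.29 M of 101.5 M with G3SKM.

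Rps12-ps3, a copy of the small-subunit gene Rps12, had the highest mean, at 3532 RPKM. It stood at 2282 RPKM with empty vector, 4221 with SKM, 3047 with OSKM and 4577 with G3SKM. The other copies among the 10 highest were Rps16-ps2, Rps12-ps9, Rpl28-ps1, Rps24-ps3, Rps18-ps3, Rps26-ps1, Rpl31-ps8, Rpl10a-ps1 and Rpl19-ps11, with means between 1551 and 2538 RPKM. Their parents encode structural proteins of both subunits, and loss of RPS24 or RPS26 is a known cause of Diamond-Blackfan anaemia in humans. In all 10 the empty vector value was lower than the SKM and OSKM values, and it was also lower than the G3SKM value in 9, Rpl28-ps1 being the exception.

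The level of a member went with its likeness to the parent. The coding sequence of the parent was covered to at least 80% in 171 members, whose identity to it ran from 80.1% to 100% with a median of 97.3%. The 12 members at 100% had a median of the mean RPKM of 1431, and the lowest of them had 1095. The median was 985 RPKM in 37 members from 99% to under 100%, 611 in 29 from 98% to 99%, 163 in 39 from 95% to 98%, 1.44 in 36 from 90% to 95%, and 0.178 in 18 under 90%. In windows of 50 bases, 15 members had 90% or more of their windows in the parent and a median of 1346 RPKM, and 24 had none and a median of 0.137 RPKM. Across the 180 members the rank correlation of the mean RPKM with the share of windows was 0.84. The members share libraries and depth, and the ranges of identity were chosen after the values were seen, so these values are a description.

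**Figure D1:**
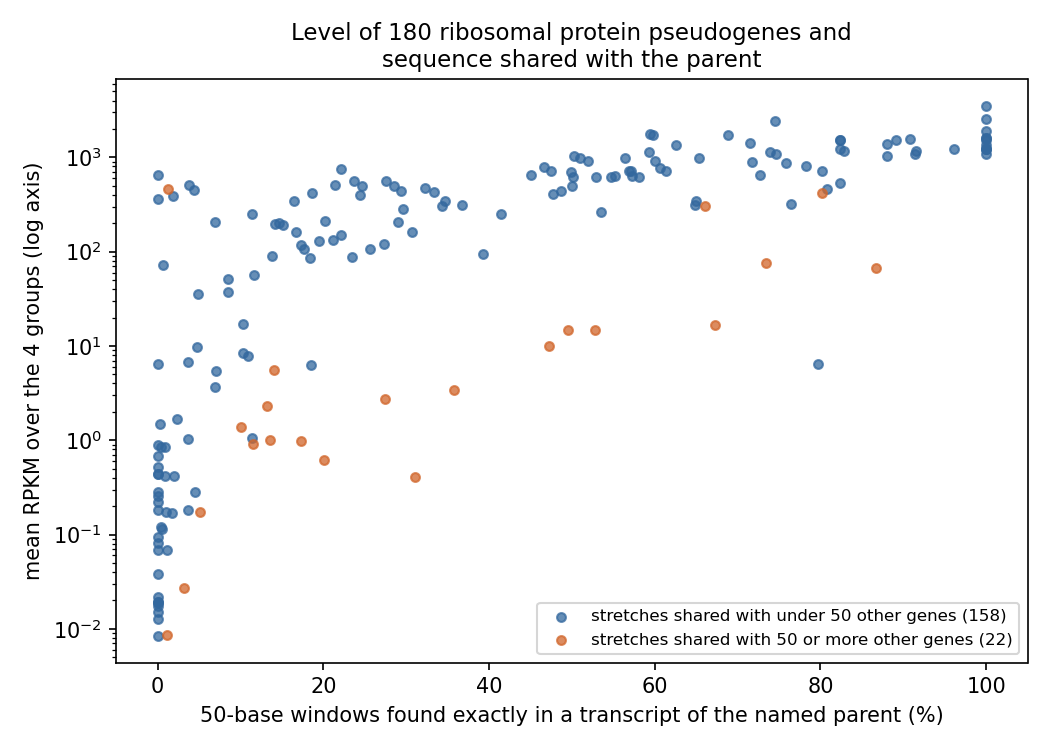
Each point is 1 of 180 pseudogenes. The horizontal axis is the percent of its 50-base windows found exactly in the named parent, and the vertical axis is its mean RPKM over the 4 groups on a log axis. Orange points share such windows with 50 or more other genes, and blue points with fewer. Most orange points lie below the blue points with a similar share of windows, and Rpl7a-ps12, at the left edge with a mean of 462 RPKM, is an exception.

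Reads that fall within an exact shared stretch carry nothing that tells the copy from its parent. In 20 members every 50-base window also occurred in another gene, and 19 of these had a mean of 100 RPKM or more. How the authors treated reads with several matches, and the read length, are not stated by any source used here. For members with long shared stretches, RNA of the pseudogene and RNA of the parent therefore cannot be told apart. The 9 members with no window in any other gene never exceeded 0.661 RPKM in any group.

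Rpl35a-ps3, Rpl35a-ps4 and Rpl35a-ps2 are 3 loci with 1 sequence of 333 bases. Rpl35a is a large-subunit gene, and the copies differ from its coding sequence at 1 base, shown in capitals in a 90-base stretch of the coding sequence.
Rpl35a: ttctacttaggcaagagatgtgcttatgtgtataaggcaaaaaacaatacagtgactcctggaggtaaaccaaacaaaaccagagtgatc
Rpl35a-ps3: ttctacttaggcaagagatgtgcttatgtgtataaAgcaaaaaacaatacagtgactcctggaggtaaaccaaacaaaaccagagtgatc
Rpl35a-ps4: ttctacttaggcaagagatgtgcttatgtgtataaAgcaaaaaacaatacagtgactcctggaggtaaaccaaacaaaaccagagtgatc
Rpl35a-ps2: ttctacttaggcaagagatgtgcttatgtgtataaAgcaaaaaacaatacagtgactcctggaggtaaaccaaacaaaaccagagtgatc

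Rpl35a-ps3 (chr17:29136972-29137304, GRCm38) had 1213 RPKM with empty vector, 1282 with SKM, 1554 with OSKM and 2059 with G3SKM. Rpl35a-ps4 (chr2:108874926-108875258) had 1212, 1282, 1553 and 2058 RPKM in the same order. These 2 loci differed by at most 0.0663% in any group. Pairs with a common parent were compared where both members had a mean of 1 RPKM or more. Of these 213 pairs, that of Rpl35a-ps3 and Rpl35a-ps4 was the only one within 2% in every group. Rpl35a-ps2 (chr1:181241988-181242320) has the same sequence and lay lower, at 981, 1029, 1248 and 1663 RPKM, a difference of up to 19.8% from the other two.

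Several members stood apart from the rest at their likeness to the parent. Among the 66 members with at least 50% of their windows in the parent, the 6 that share stretches with 50 or more other genes had a median mean of 71.7 RPKM, and the 60 that share with fewer had 1064. Rpl7a-ps11, 99.7% identical to Rpl7a and sharing stretches with 124 other genes, had 44.4 RPKM with empty vector, 88.5 with SKM, 68.8 with OSKM and 69.5 with G3SKM. Rpl21-ps15, 99.4% identical to Rpl21 and sharing with 86 other genes, had 20.6, 8.57, 16.1 and 21.6 RPKM. Both belong to families with many annotated copies. Rpl13-ps6, 99.5% identical to Rpl13, was low with only 15 other genes, at 5.28 RPKM with empty vector, 8.17 with SKM, 6.40 with OSKM and 5.88 with G3SKM.

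In the other direction, 7 members had a mean of 100 RPKM or more with under 10% of their windows in the named parent. Among them were Rpl18-ps1, Rpl19-ps4, Rpl7a-ps12, Rpl13a-ps1, Rpl36a-ps3 and Rps15a-ps2, named after their values were seen. Rpl19-ps4 had a mean of 512 RPKM at 89.7% identity to the coding sequence of the parent. Only 15.3% of its windows occurred in any other gene. Rpl19-ps4 overlapped an exon of Gm27506, and Rpl7a-ps12 one of Gm6472, both on the same strand.

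For Rpl36a-ps3 the symbol does not name the gene it resembles most. It matched Rpl36al at 99.7% over 100% of its coding sequence. It is shown against Rpl36al and Rpl36a, with capitals at its 18 differences from Rpl36a in the first 120 coding bases. Rpl36al itself is an intronless copy that encodes a nearly identical protein.
Rpl36al: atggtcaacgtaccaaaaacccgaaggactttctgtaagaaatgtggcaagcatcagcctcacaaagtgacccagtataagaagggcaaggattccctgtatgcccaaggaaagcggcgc
Rpl36a: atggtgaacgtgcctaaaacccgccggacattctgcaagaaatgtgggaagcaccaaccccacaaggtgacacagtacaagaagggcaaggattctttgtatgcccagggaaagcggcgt
Rpl36a-ps3: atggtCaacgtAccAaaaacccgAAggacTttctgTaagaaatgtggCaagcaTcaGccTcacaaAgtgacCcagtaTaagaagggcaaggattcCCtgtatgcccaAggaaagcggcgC

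Rpl36a-ps3 (chr6:136488807-136489127) had 324 RPKM with empty vector, 282 with SKM, 429 with OSKM and 424 with G3SKM. Its log2 ratio in G3SKM against empty vector was 0.39, that of Rpl36al 0.37 and that of Rpl36a -0.09. Rpl17-ps11 had no close match among the ribosomal protein coding sequences, and its mean was 0.259 RPKM.

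The reading frame was compared in the same way. From the start codon of the parent, 26 members could still be read as the same protein, and their median mean level was 1231 RPKM. A frame of at least the full length with a changed product was found in 67, with a median of 317 RPKM. In 19 the frame was slightly shorter, with a median of 9.98 RPKM. In the other 68, with a median of 21.9 RPKM, it was cut further or its start was lost or not aligned. Frame and identity come from the same alignment and cannot be told apart here.

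The level against the parent depends on the length used for the parent. The deposited RPKM appear to divide reads by the whole span of a gene, introns included. That lowers the parents and leaves single-exon copies unaffected. It is inferred from whole-read steps in the values with spans of a later annotation, as the counter is not given. With the parent rescaled to its exon length, the median member stood at 109% of its parent with empty vector, 99.4% with SKM, 107% with OSKM and 98.1% with G3SKM. On the deposited scale the medians were 195.5% to 213.8%, and with the length of the principal transcript 45.0% to 51.1%. No direction between the levels of copies and parents can therefore be given. Ratios between groups do not depend on the length, apart from the effect of the added 1 RPKM.

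For the comparisons, log2 of the ratio of RPKM + 1 was taken among genes that reached 1 RPKM in either group. A member was called higher or lower at a log2 ratio of at least 1 in size. In all, 147 members reached 1 RPKM in some group, and 33 never did. The 3 comparisons with empty vector share that library, and the 3 with SKM share the SKM library. The SKM library stood apart by base composition: across all genes the rank correlation of transcript GC with the log2 ratio was 0.50 in SKM against empty vector, -0.71 in OSKM against SKM and -0.71 in G3SKM against SKM, and between -0.002 and 0.06 in the other comparisons. Depth, recovered from the steps of the values, was 111.1 M reads with empty vector, 54.0 with SKM, 74.7 with OSKM and 101.5 with G3SKM. All 10 fibroblast markers were at 1 RPKM or more in each group, with summed levels per exon length between 1019 and 2537 RPKM. Of 8 macrophage markers, 7 reached 1 RPKM in empty vector and 3 in each other group (sums 4.91 to 104 RPKM), and of 7 keratinocyte markers 1 in empty vector and 3 or 4 elsewhere (sums 1.28 to 91.2 RPKM). At most 1 of 4 endothelial markers and none of 4 erythroid markers reached it. The part of these differences in the values below was not tested.

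SKM against empty vector asked what the 3 factors did without Oct4. Copies of Rpl36 and Rpl28, both large-subunit genes with GC-rich copies, lay mostly higher in SKM, and copies of Rpl30 lay mostly lower. By the rule 4 of 5 copies of Rpl36 and both copies of Rpl28 were called higher, and 5 of 6 copies of Rpl30 and 3 of 6 of Rpl21 lower. Of 144 members past the filter, 13 were called higher, where 8.88% of all genes were, and 13 lower, where 5.98% were. These are 9.03% of the members in each direction, and the share called higher was near the background. The median log2 ratio of the members was 0.22, and that of all genes was 0.15. For the ribosomal protein genes themselves, of which 81 of 83 were listed, 12 were called higher and 3 lower, with a median of 0.44.

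Rpl36-ps2 had 727 RPKM with empty vector, 2092 with SKM, 1240 with OSKM and 1322 with G3SKM. Rpl36-ps12 had 438, 1508, 870 and 810 RPKM in that order. Their log2 ratios in SKM against empty vector were 1.52 and 1.78, and that of Rpl36 was 1.43. Of the 5 listed copies of Rpl36, 4 were called higher, and Rpl36-ps10 was at -0.09 with 1.26 RPKM or less in every group. Rpl28-ps1 (chr1:128038569-128038982), a copy of Rpl28 without a difference over its coding sequence, had 1221 RPKM with empty vector, 3022 with SKM, 2128 with OSKM and 1202 with G3SKM. Rpl28-ps3 had 635, 1581, 1120 and 614 RPKM. SKM was the highest group in all 4 of these copies, and the log2 ratio of both Rpl28 copies was 1.31, beside 1.28 in Rpl28.

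Copies of Rpl30, a small RNA-binding protein of the large subunit, went the other way. Rpl30-ps1 had 338 RPKM with empty vector, 129 with SKM, 261 with OSKM and 322 with G3SKM. Rpl30-ps8 had 408, 162, 325 and 366 RPKM, and Rpl30-ps10 had 409, 162, 325 and 374 RPKM. The SKM value was the lowest in each. The 6 copies past the filter had log2 ratios between -1.38 and -0.59 with a median of -1.28, 5 were called lower, and Rpl30 itself was at -0.81. With the median of each of 20 GC bins subtracted 3 of the 6 were lower by the rule, and none with the overall median kept, where their median was -0.81. Of the 5 Rpl36 copies 1 and 2 were higher in these forms, and the Rpl28 copies were at 0.85 and 0.88, or 1.00 and 1.02. In G3SKM against empty vector, which does not use the SKM library, the same 6 copies lay between -0.23 and -0.05. The median GC of the Rpl30 copies was 43.7%, the lowest of the 24 families with 3 or more listed copies, and that of the Rpl36 copies was 60.3%, the highest.

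The start of an Rpl30 copy and of an Rpl28 copy is shown to set the base composition beside the values. Each line gives 120 coding bases, with capitals where the copy differs from the parent.
Rpl30: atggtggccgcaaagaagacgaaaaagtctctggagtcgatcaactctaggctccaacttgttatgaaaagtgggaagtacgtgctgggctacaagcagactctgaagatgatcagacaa
Rpl30-ps8: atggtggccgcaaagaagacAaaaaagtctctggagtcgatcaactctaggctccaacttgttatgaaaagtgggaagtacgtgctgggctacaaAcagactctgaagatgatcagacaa
Rpl28-ps1: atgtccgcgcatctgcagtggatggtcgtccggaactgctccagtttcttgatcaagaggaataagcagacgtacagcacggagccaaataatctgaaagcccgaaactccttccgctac

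Across the members past the filter the rank correlation of GC with the log2 ratio was 0.55 in SKM against empty vector, -0.64 in OSKM against SKM and -0.73 in G3SKM against SKM. It was 0.29 in OSKM against empty vector, -0.05 in G3SKM against empty vector and 0.49 in OSKM against G3SKM. These are descriptions over genes measured in the same libraries. With the median of each of 20 GC bins subtracted, 6 members were higher and 9 lower in SKM against empty vector (backgrounds 3.96% and 6.06%). With the overall median added back, a form chosen after seeing the data, 11 were higher and 6 lower (backgrounds 6.01% and 4.25%). The higher calls were thus 13 of 26 as deposited, 6 of 15 with the bin medians subtracted and 11 of 17 with the overall median kept.

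**Figure D2:**
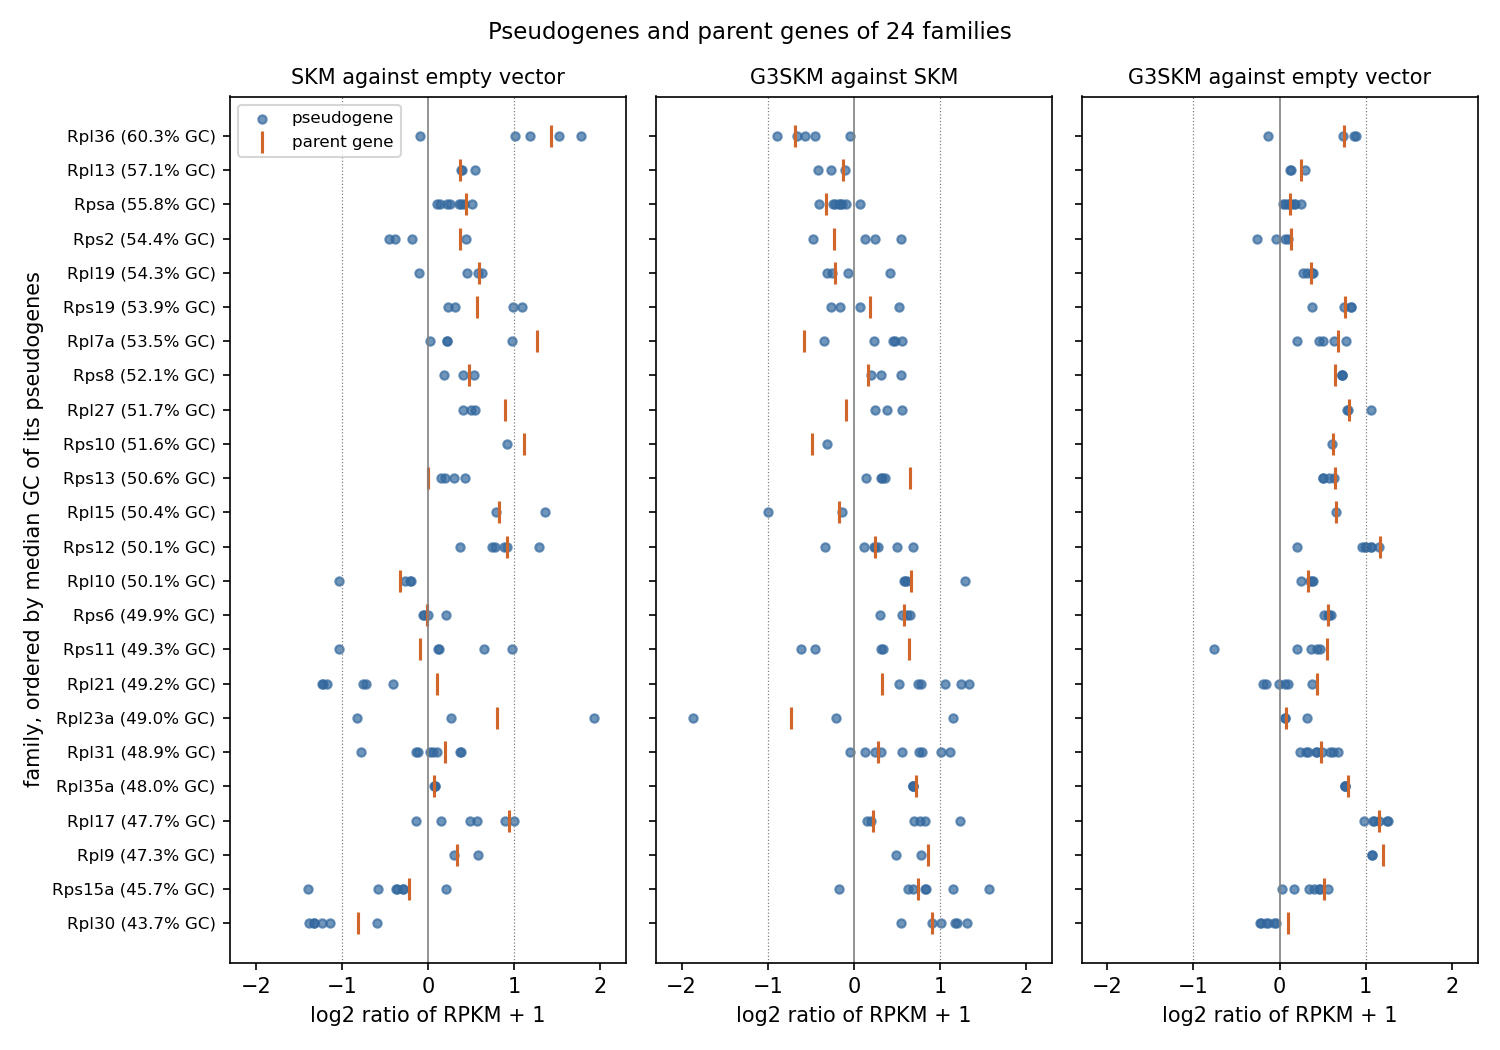
Rows are the 24 families with 3 or more listed pseudogenes, from the lowest median GC at the bottom to the highest at the top, and the horizontal axis is the log2 ratio of RPKM + 1. Blue points are pseudogenes past the filter, orange bars are parents, and dotted lines mark a log2 ratio of 1 in either direction. In the left panel the Rpl30 copies lie between -1.38 and -0.59, and in the right panel between -0.23 and -0.05.

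Copies of Rpl21, another large-subunit gene, departed from their parent. The 6 past the filter had log2 ratios between -1.24 and -0.41 in SKM against empty vector, and Rpl21 was at 0.11. The rule called 3 of them lower, and also 3 in either form of GC removal. Rpl21 itself had 4.15 RPKM per exon length in empty vector and 4.57 in SKM, where the median parent had 161 and 244. The copies of Rpl7a also lay below their parent, with a median of 0.22 against 1.27 in Rpl7a. Copies of Rps6, a small-subunit protein phosphorylated downstream of growth signals, lay close to it, with a median of -0.02 and Rps6 at -0.02. The 8 copies of Rpsa, which encodes a small-subunit protein also known as the laminin receptor, lay between 0.11 and 0.51, with Rpsa at 0.44.

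Rpl23a-ps1 had the largest log2 ratio of any member in SKM against empty vector. Rpl23a is a large-subunit protein near the exit of the peptide tunnel. The copy is 92.0% identical to it and is shown beside Rpl23a-ps3, which is 99.8% identical, with capitals at differences from Rpl23a in the first 120 coding bases.
Rpl23a: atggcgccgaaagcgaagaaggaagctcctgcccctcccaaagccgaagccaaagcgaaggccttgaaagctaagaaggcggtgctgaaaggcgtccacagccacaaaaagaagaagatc
Rpl23a-ps3: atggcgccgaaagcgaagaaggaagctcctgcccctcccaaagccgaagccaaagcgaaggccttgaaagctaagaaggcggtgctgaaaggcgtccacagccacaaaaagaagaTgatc
Rpl23a-ps1: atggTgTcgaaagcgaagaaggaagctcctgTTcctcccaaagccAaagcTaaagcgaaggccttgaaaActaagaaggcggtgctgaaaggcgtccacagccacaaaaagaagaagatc

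Rpl23a-ps1 (chr1:45981548-45982012) had 4.37 RPKM with empty vector, 19.4 with SKM, 5.64 with OSKM and 4.60 with G3SKM. SKM was the only high value, and the other 3 groups lay close together. The values correspond to about 226, 486, 196 and 217 reads, and the ratio of SKM to empty vector was 4.43 with a 95% interval of 3.77 to 5.20 that covers counting error only. Its log2 ratio was 1.92, and 2.05 with the GC trend removed and the overall median kept. Rpl23a-ps3 (chr14:34170655-34171122) had 925, 1115, 1165 and 970 RPKM, and its log2 ratio was 0.27. Rpl23a itself was at 0.80, and Rpl23a-ps14 went the other way at -0.83, with 9.02, 4.64, 6.36 and 11.5 RPKM.

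Rps15a-ps8, a copy of a small-subunit gene, had the lowest log2 ratio, -1.40, where Rps15a was at -0.22. It had 12.1 RPKM with empty vector, 3.98 with SKM, 9.01 with OSKM and 13.8 with G3SKM, or about 521, 83, 260 and 541 reads. The ratio of SKM to empty vector was 0.328, with a 95% counting interval of 0.257 to 0.414. Of the 50-base windows of Rpl23a-ps1 10.3% occurred in the parent, and of those of Rps15a-ps8 4.73%.

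**Figure D3:**
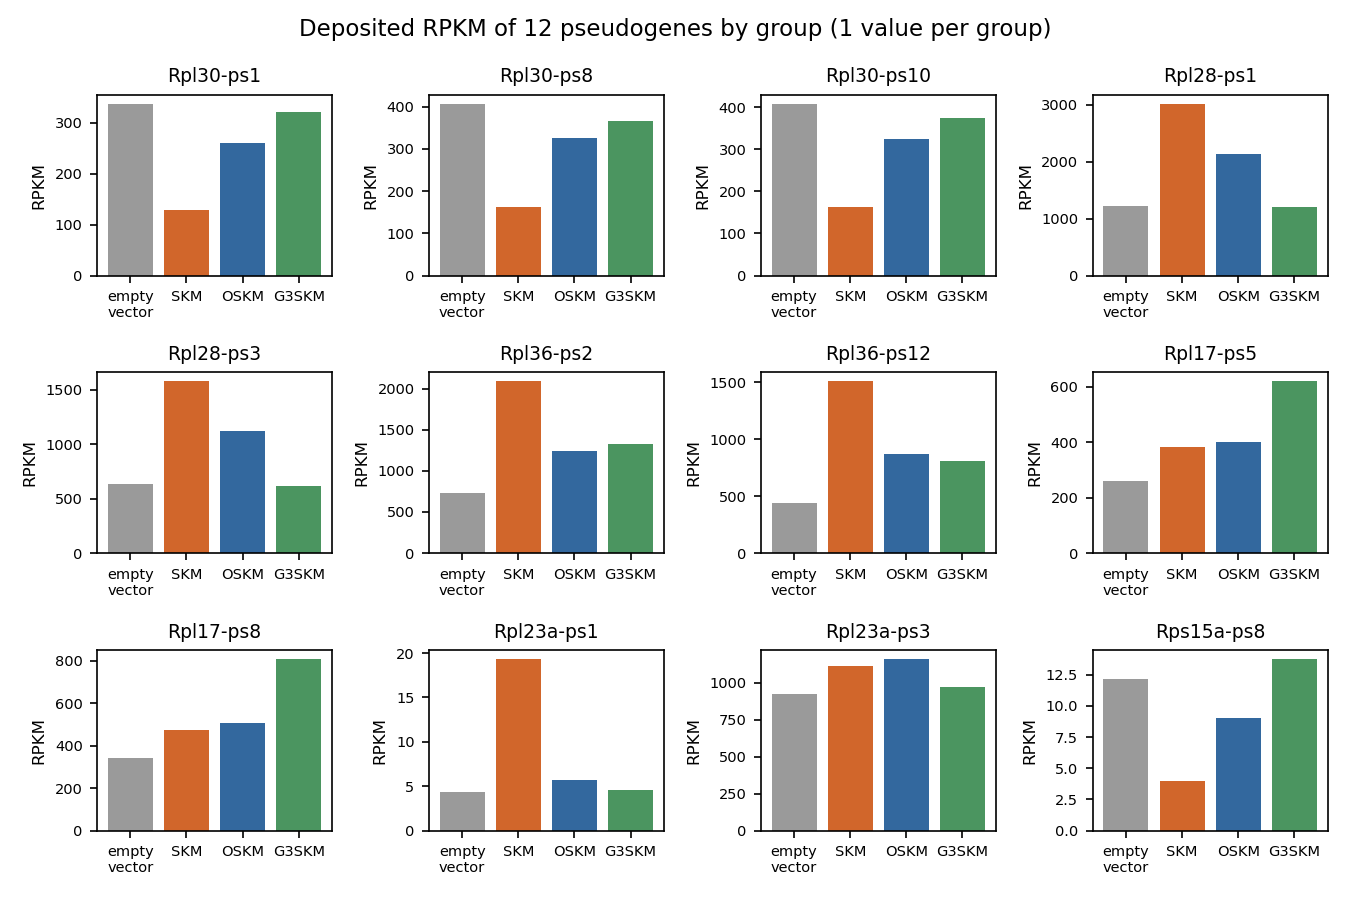
Bars give the deposited RPKM of 12 pseudogenes in empty vector, SKM, OSKM and G3SKM, 1 value per group with no error bar since replicates were combined, and each panel has its own axis from 0. The SKM bar is the lowest in the Rpl30 copies and Rps15a-ps8 and the highest in the Rpl28 and Rpl36 copies and Rpl23a-ps1, which reached 19.4 RPKM.

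OSKM against SKM asked what Oct4 added to SKM. Few copies differed by the rule. Of 141 members past the filter, 4 were called higher (background 2.55%) and 1 lower (background 1.64%), and the median log2 ratio was 0.02, with all genes at -0.01. The 4 were Rpl36a-ps1 at 1.06, Rpl30-ps1 at 1.01, Rps15a-ps8 at 1.01 and Rpl30-ps8 at 1.00, and the 1 lower was Rpl23a-ps1 at -1.62. Rpl36a-ps1, annotated as protein coding, had 390 RPKM with empty vector, 193 with SKM, 404 with OSKM and 387 with G3SKM, so that SKM was its only low value. With the GC trend removed in either form, none was higher and 1 was lower (backgrounds 1.07% and 1% with the bin medians subtracted, 1.07% and 1.03% with the overall median kept). Of the ribosomal protein genes, 2 were called higher and 0 lower, with a median of -0.21.

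G3SKM against SKM asked the same of GATA3. More copies were higher here than over all genes. Of 146 members past the filter, 17 were called higher (11.6%, background 4.43%) and 5 lower (3.42%, background 1.1%), with a median of 0.33 where that of all genes was 0.00. Copies of Rpl30 (4), Rpl21 (3), Rps15a (2), Rpl5 (2) and Rpl31 (2) made up most of the 17. With the GC trend removed in either form, 5 were higher and 4 lower (backgrounds 2.12% and 0.581% with the bin medians subtracted, 1.97% and 0.603% with the overall median kept). Of the ribosomal protein genes, 5 were called higher and 1 lower, with a median of 0.21.

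Rps15a-ps8 was at 1.57, Rpl21-ps14 at 1.33 and Rpl30-ps1 at 1.31. Rpl10-ps2, a copy of the gene for a large-subunit protein added late in assembly, had 234 RPKM with empty vector, 113 with SKM, 203 with OSKM and 278 with G3SKM, and its log2 ratio was 1.29. Rpl21-ps15 was at 1.24. Rpl17-ps4 was at 1.23, with 70.1, 63.3, 92.2 and 150 RPKM, and for this copy the G3SKM value stood above the other 3. The 5 lower were Rpl23a-ps1 at -1.86, Rpl28-ps3 at -1.36, Rpl28-ps1 at -1.33, Rpl18-ps1 at -1.06 and Rpl15-ps1 just past the rule. Rpl15-ps1 had 19, 71, 36 and 38 reads, and was chosen after its values were seen.

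OSKM against empty vector was set across the tables, and no member was called higher (background 4.82%), while 1 of 142 was called lower (background 4.16%). The median log2 ratio was 0.25, and that of all genes 0.18. The member called lower was Rpl26-ps4, just past the rule, with 3.15 RPKM with empty vector, 0.72 with SKM, 1.07 with OSKM and 1.85 with G3SKM, or 153, 17, 35 and 82 reads. Its value was highest in empty vector, and its log2 ratio lay 1.34 below that of Rpl26, the large-subunit gene that it copies. With the bin medians of GC subtracted none was higher and 1 lower (backgrounds 2.75% and 5.97%), and with the overall median kept 1 was higher and 1 lower (backgrounds 4.44% and 4.16%). Of the ribosomal protein genes, 1 was called higher.

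G3SKM against empty vector gave the most uniform shift. The log2 ratio was above 0 in 128 of 145 members (88.3%), where 63.1% of all genes were above 0. Copies of the same parent can hold the same reads, so the members are not independent and this share is a description. By the rule 17 were higher (11.7%, background 7.11%) and none was lower (background 3.75%). The median was 0.42, beside 0.17 over all genes and 0.51 over the ribosomal protein genes, of which 7 were called higher and none lower. Most of the 17 lay just past the rule: 3 were past it after centring on the median of all genes and 3 with the bin medians of GC subtracted (background 4.29%), while 13 were past it with the overall median kept (background 6.44%). None was lower in either form (backgrounds 5.39% and 3.73%).

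Copies of Rpl17, a large-subunit protein beside the peptide tunnel, were the largest group, with 5 of 6 called higher. Rpl17-ps5 had 259 RPKM with empty vector, 383 with SKM, 401 with OSKM and 621 with G3SKM. Rpl17-ps8 had 340, 476, 509 and 811 RPKM. Empty vector was lowest and G3SKM highest in both. Their log2 ratios were 1.26 and 1.25, the 6 copies lay between 0.99 and 1.26, and Rpl17 was at 1.16. The 7 copies of Rps12 past the filter had a median of 1.00, and Rps12 was at 1.16. Both copies of Rpl9 past the filter were called higher, at 1.07 and 1.08, with Rpl9 at 1.20.

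Rpl34-ps2, a copy of a large-subunit gene, had 273 RPKM with empty vector, 413 with SKM, 359 with OSKM and 644 with G3SKM, a log2 ratio of 1.23. Rpl17-ps10 and Rps12-ps10 were both at 1.15. Copies of Rpl30 had the lowest median of the 24 families, -0.14, with Rpl30 at 0.10. The next were copies of Rps2 at 0.01 and of Rpl21 at 0.03, with Rps2 at 0.14 and Rpl21 at 0.44.

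OSKM against G3SKM placed the sets with Oct4 and GATA3 side by side. The log2 ratio was below 0 in 117 of 144 members, and above 0 in 18.8% where 51.8% of all genes were above 0. Here too the members are not independent, and the share is a description. None was called higher (background 0.724%) and 1 lower (background 2.25%), with a median of -0.29 beside 0.01 over all genes. With the bin medians of GC subtracted the counts were the same (backgrounds 0.623% and 2.17%), as they were with the overall median kept (backgrounds 0.654% and 2.05%). Of 81 ribosomal protein genes none was called in either direction, and their median was -0.21. The 1 lower member was Rpl31-ps6, at -1.09, with 0.69 RPKM with empty vector, 0.05 with SKM, 0.07 with OSKM and 1.28 with G3SKM. These are 29, 1, 2 and 49 reads, low in SKM and OSKM and higher in empty vector and G3SKM. The ratio of OSKM to G3SKM was 0.0555. This member passed the filter through G3SKM alone and is named because of this ratio, so no interval is given. The call was lost with a pseudocount of 5 RPKM and with the filter at 5 RPKM.

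Members and parents were then compared across the groups. The log2 ratio of the member lay within 0.5 of that of its parent in 95.9% of members in G3SKM against empty vector, 93.8% in OSKM against G3SKM and 90.8% in OSKM against empty vector. It did so in 85.1% in OSKM against SKM, 76.7% in G3SKM against SKM and 71.5% in SKM against empty vector, the comparisons that use the SKM library. The spread of the ratios differed, with member quartiles of -0.16 and 0.57 in SKM against empty vector and 0.01 and 0.45 in OSKM against empty vector. A fixed width of 0.5 is thus not alike across comparisons. The rank correlation of member and parent ratios was 0.83, 0.69 and 0.75 in the first 3 comparisons named. In the last 3 it was 0.65, 0.67 and 0.72, so it did not follow the same split. A gap of more than 1 was found in 13 members in SKM against empty vector, among them Rpl23a-ps14 at -1.63 and Rpl26-ps4 at -1.52. In G3SKM against empty vector Rpl26-ps4 was at -1.29. Members that share stretches with the parent can hold the same reads, so these shares and correlations are a description.

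**Figure D4:**
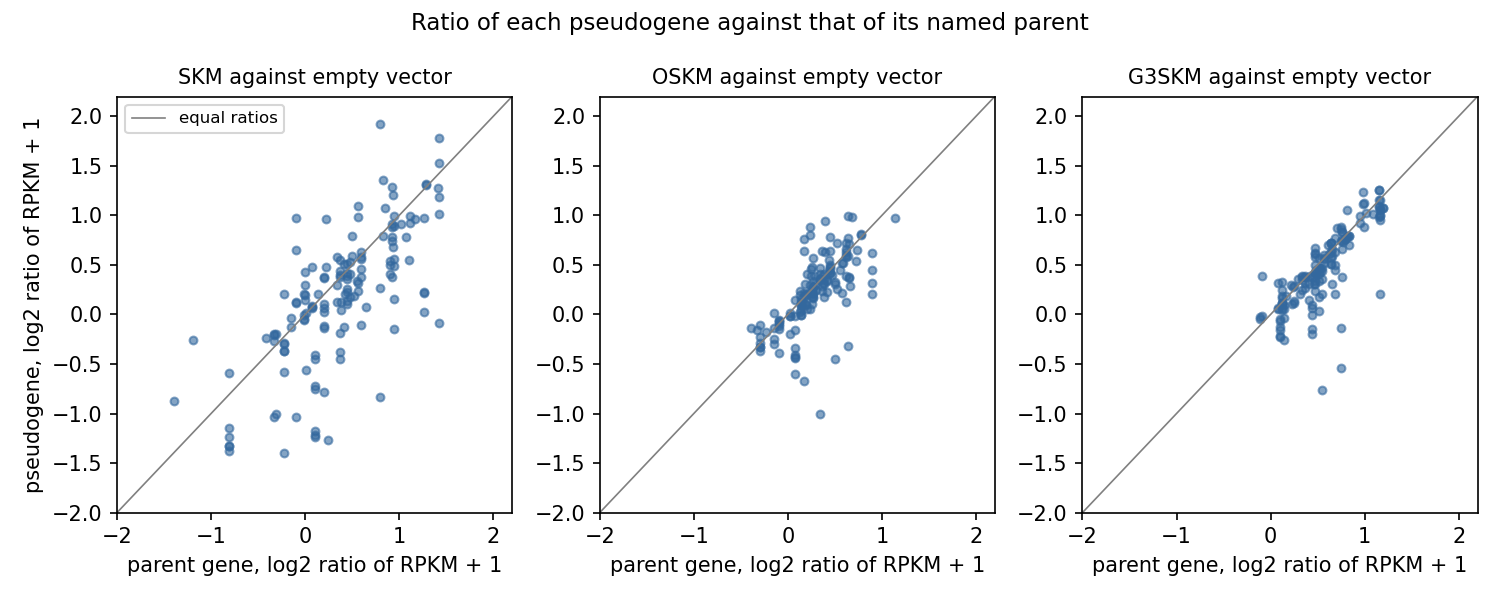
Each point is 1 pseudogene past the filter, with the log2 ratio of its parent on the horizontal axis and its own on the vertical axis, both on RPKM + 1, and the line marks equal ratios. Within 0.5 of the parent lay 71.5% of the points in the left panel, 90.8% in the middle and 95.9% in the right panel. The rank correlations were 0.72, 0.75 and 0.83 in the same order.

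At the low end, 16 members were listed at 0 or not listed in some group, and none of them exceeded 0.543 RPKM anywhere. Rps29-ps, a copy of a small-subunit gene without a 50-base window in any other gene, had 2 reads in SKM, 2 in OSKM and 0 in empty vector and G3SKM. Rpl30-ps2 had 7, 0, 8 and 16 reads in empty vector, SKM, OSKM and G3SKM. Rpl30-ps2 was picked for its 0 in SKM after the values were seen, so these reads are a description. SKM, the shallowest library, held 13 of the members at 0.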

How the data were processed

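The 3 deposited tables set SKM beside empty vector, and OSKM and G3SKM each beside SKM. Per the file headers, their values are the authors' RPKM with a log2 ratio of the 2 columns, which was not used. TopHat 1.3.0 and mm9 are named in the submitters' processing notes. Not given in the sources used here are the counter, the annotation release and the way replicates were joined. Per the labels' protocols, RNA was cleared of DNA and cDNA was amplified by PCR. A value of 0.001, and a gene not listed in a table, were read as 0.

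Symbols, spans, exon lengths, transcripts and coordinates come from GENCODE M21 (GRCm38), a later build than that of the values. A symbol was found for 25103 of 27597 genes (91.0%). RPKM times the span less 1 base fell within 0.05 of whole reads for 74.7% to 76.7% of genes with up to 1000 reads in each library, and for 37 to 43 of the 51 to 56 such members, which gave depth and reads. For the remainder, Rpl23a-ps1 among them, reads are approximate. Copies were aligned locally to the coding sequence of the parent's principal transcript, a choice made after seeing the alignments (match 2, mismatch -3, gap -6 and -2). Exact windows were counted in all transcripts of the parent. Python 3.11.15, pandas 2.3.3, SciPy 1.17.1 and Biopython 1.88 were used.

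The rule of size was tested on simulated data. The simulation held counting error only and planted changes far larger than the rule, so it does not bear on the calls made here. The members, lists and rules were chosen with earlier results of these data known. Members were named as the 10 with the highest mean, the 5 largest log2 ratios in each direction per comparison at 5 RPKM or more, and families with 3 or more copies, with their parents. Members named for their sequence, or under 5 RPKM, and all printed sequences were chosen after the values were seen. Members on chromosome 18 have no sequence printed. Some items are not reported here.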

Additional observations from a re-analysis of the deposited data

How the results depend on the processing

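No paired analysis was possible because each group has 1 value in which both replicates are combined, and for the same reason no replicate could be left out. The alternatives were a pseudocount of 0.1 or 5 RPKM in place of 1, no filter or a filter at 5 RPKM, centring on the median of all genes, and removal of the GC trend. The GC removal that adds the overall median back, and the principal transcript length, were chosen after seeing the data. The median log2 ratio of the members changed sign in no comparison. In G3SKM against SKM 0.33 stayed between 0.28 and 0.36 in every setting. In the other comparisons its size moved by over 1.5 times in the settings given here. In SKM against empty vector 0.22 became 0.07 after centring, 0.01 with the GC bin medians subtracted and 0.11 with no filter. In OSKM against empty vector 0.25 became 0.07 after centring and 0.04 with the GC bin medians subtracted. In G3SKM against empty vector 0.42 became 0.25 and 0.24 in the same way. In OSKM against G3SKM -0.29 became -0.18 with no filter. In OSKM against SKM 0.02 became 0.05 with no filter, 0.04 with the filter at 5 RPKM, 0.05 with the GC bin medians subtracted and 0.04 with the overall median kept, all near 0.

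Counts that moved by over 1.5 times were these. In SKM against empty vector, 13 higher became 6 with the GC bin medians subtracted, and 13 lower became 6 with a pseudocount of 5 RPKM and 6 with the GC trend removed and the overall median kept. In OSKM against SKM, 4 higher became 1 with a pseudocount of 5 RPKM and 0 with either GC removal, and 1 lower became 3 with a pseudocount of 0.1 RPKM. In G3SKM against SKM, 17 higher became 10 with a pseudocount of 5 RPKM and 5 with either GC removal. In OSKM against empty vector, 0 higher became 2 with a pseudocount of 0.1 RPKM and 1 with the GC trend removed and the overall median kept, and 1 lower became 2 with a pseudocount of 0.1 RPKM, 0 with one of 5 RPKM and 0 with the filter at 5 RPKM. In G3SKM against empty vector, 17 higher became 3 after centring and 3 with the GC bin medians subtracted, and 0 lower became 1 with a pseudocount of 0.1 RPKM. In OSKM against G3SKM, 1 lower became 2 with a pseudocount of 0.1 RPKM, 0 with one of 5 RPKM and 0 with the filter at 5 RPKM. The cause of these moves was not tested.

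The median level against the parent was 204.5%, 195.5%, 213.8% and 197% in empty vector, SKM, OSKM and G3SKM per gene span, and 51.1%, 45.0%, 51.0% and 47.2% per principal transcript. The median share of windows found in the parent was 27.4% at 50 bases, 39.4% at 36, 13.0% at 75 and 5.22% at 100. Depth limits the members under 1 RPKM, most of all in SKM.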
